A study of Mus musculus with 6 samples.

Results

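Respiratory complex I genes were read from the gene counts of mouse bone marrow-derived macrophages with and without a knockout of Dhps, the gene for deoxyhypusine synthase. The members are all rows of the deposited table whose gene name starts with Nduf, 43 of 10551 genes. Of these, 36 carry subunit names and 7, Ndufaf1 to Ndufaf7, are assembly factors. The table comes from RNA sequencing of 6 libraries on an Ion Proton instrument. In 3 libraries the macrophages carried the knockout written Dhps_delta_Myel in the labels, described there as specific to macrophages, and in 3 they had the genotype labelled control. All 6 came from the strain C57BL/6J. The labels give no age, stimulus, growth factor or Cre driver, and no origin of the replicates, so the p-values rest on a spread between samples that could be only technical.

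Complex I is the first enzyme of the mitochondrial respiratory chain. It takes electrons from NADH, passes them over a flavin and a row of iron-sulfur clusters to ubiquinone, and pumps protons across the inner membrane. Its parts are built as modules: an N module that binds NADH, a Q module that hands electrons to ubiquinone, and a membrane arm with a proximal and a distal section that pump protons. Core subunits carry the chemistry, supernumerary subunits surround them, and assembly factors help to build the complex without staying in it. In macrophages, inflammatory activation is known to shift metabolism from respiration towards glycolysis. Deoxyhypusine synthase starts the formation of hypusine on the translation factor eIF5A, a modification of a protein that RNA counts do not measure.

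No complex I gene passed the test between Dhps knockout and control macrophages. Of the 43 genes, 0 were called changed by edgeR's quasi-likelihood test with Benjamini-Hochberg adjustment over all 10551 genes at an adjusted p under 0.05, where 11 genes (0.104%) were called in the whole table, 10 (0.0948%) higher and 1 (0.00948%) lower in the knockout. The smallest adjusted p of a member was 0.627, for Ndufs7. DESeq2 and limma-voom called 0 members too. At an unadjusted p under 0.05, 3 members were lower in the knockout (Ndufs7, Ndufc2 and Ndufa6) and 0 were higher, against 2.64% lower and 3.84% higher among all genes. DESeq2 had 3 members and limma-voom 4 under that unadjusted p.

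The members lay mostly a little below 0. The log2 fold change, knockout over control, was below 0 for 30 of the 43 genes (69.8%), against 51.3% of all genes. Its median was -0.064 over the members and -0.0044 over all genes, and single members lay between -0.40 (Ndufaf6) and 0.31 (Ndufb4). For 34 members (79.1%) the whole 95% interval of the fold change lay within 1.5-fold each way, against 71.9% of all genes. The other 9 were Ndufb3, Ndufb4, Ndufab1 and 6 of the 7 assembly factors. Values of the knockout and control libraries did not overlap for 4 members that were lower in the knockout (9.30%; 5.45% of all genes) and for 1 that was higher (2.33%; 5.73% of all genes). The other 38 members overlapped.

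**Figure D1:**
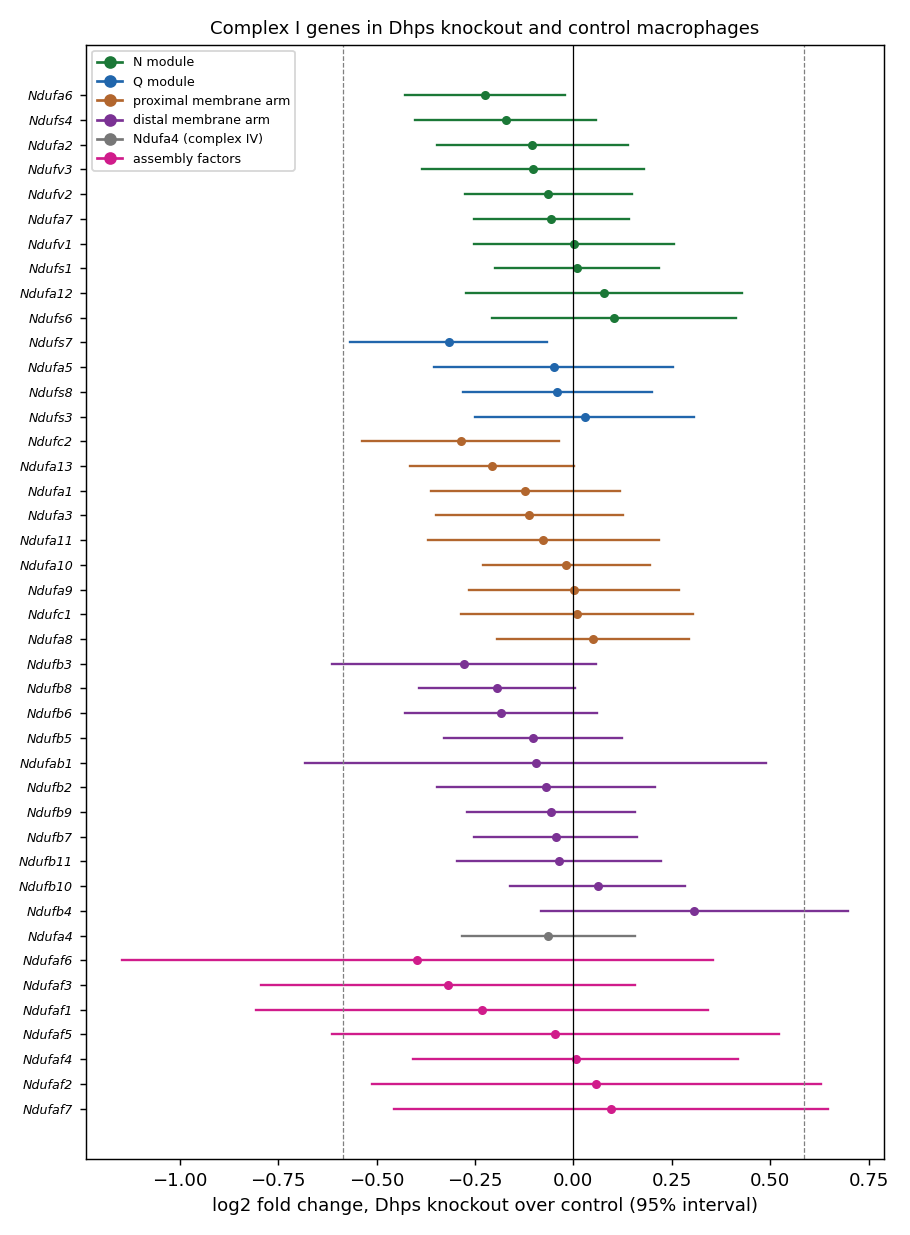
Log2 fold change of 42 of the 43 genes, Dhps knockout over control (x axis), with its 95% interval as a line and genes grouped and coloured by module (y axis). Dashed lines mark 1.5-fold each way. Most points sit just left of 0, most intervals stay between the dashed lines, and the widest are those of Ndufaf6 and the subunit Ndufab1. Intervals of 6 of the 7 assembly factors cross a dashed line.

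Summed over the 43 genes, knockout libraries had 1274, 1259 and 1326 CPM (counts per 1000000 counts of the library, after TMM scaling), against 1421, 1377 and 1319 CPM in control libraries. The groups overlapped, since knockout library 3 lay above control library 3. The mean was 1286 ± 35.6 CPM in knockout and 1372 ± 51.1 CPM in control libraries (SD, n = 3 each), a ratio of 0.937. Each library's median log2 deviation over the members was -0.065, -0.083 and 0.0033 in knockout libraries 1 to 3, against 0.060, 0.040 and -0.0038 in control libraries 1 to 3. Libraries numbered 1 and 2 thus stood apart between the groups and those numbered 3 did not. In bulk RNA, fewer cells of a type and less RNA per cell cannot be told apart.

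Total counts lay between 11648710 and 16224818 per library, and Dhps had 13.2, 13.6 and 18.3 CPM in knockout and 24.1, 20.9 and 23.4 CPM in control libraries. Its log2 fold change was -0.59 (SE 0.14; adjusted p = 0.214 by edgeR's quasi-likelihood test), so the groups did not overlap but the targeted gene was not called, and the labels do not say which exons the knockout removes. Macrophage markers were high in all libraries (10 of 10 measured), and 1 of them, Lyz2, was called lower in the knockout. Of the neutrophil markers, 13 of 17 were measured and 5 were called higher. Their summed level was 1502 to 1755 CPM in knockout and 977 to 1248 CPM in control libraries. The largest part of that sum was Mmp9, with a mean of 659 CPM in knockout and 531 CPM in control libraries. Mmp9 overlapped between the groups and was not called. Ly6g, Cxcr2, Retnlg and Ctsg had no row. Stromal markers (5 of 10 measured, 2 called higher) summed to 12.2 to 19.6 CPM in knockout and 6.69 to 10.7 CPM in control libraries. Col1a1, Col3a1, Dcn, Lum and Thy1 had no row. The called genes, Col1a2 and Sparc, were under 1 CPM in all control libraries. Every gene of the table exceeded 1 CPM in at least 3 libraries, so these genes had a row only through the knockout libraries. Their calls are therefore no independent support for a stromal difference. Platelet markers (7 of 9 measured, 0 called) summed to 33.7 to 41.3 CPM in knockout and 19.0 to 26.1 CPM in control libraries. Gp1bb and Gp6 had no row. All 7 were above 0, with a median log2 fold change of 0.77. At an unadjusted p under 0.05, 5 of the 7 were higher, against 3.84% of all genes. Without overlap, 5 (71.4%) were higher, against 5.73% of all genes. Tubb1 and Gp9 among them were also under 1 CPM in all control libraries, so they too had a row only through the knockout libraries. Monocyte markers (9 of 10 measured, 0 called; no row for Ly6c1) summed to 812 to 1061 CPM in knockout and 869 to 1076 CPM in control libraries, a sum made up mostly of Fn1. Of these 9 markers, 7 were above 0, with a median log2 fold change of 0.50. At an unadjusted p under 0.05, 5 of the 9 were higher, against 3.84% of all genes. Without overlap, 3 (33.3%) were higher, against 5.73% of all genes. The part of these cells in the complex I values was not tested.

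The promoter of Ndufs7, the member with the smallest p, is shown whole, as RefSeq gives it for GRCm38.p6 from 250 bases before to 50 bases after the start of the gene; capitals mark the letters AAGATGGCG, a core of the motif of the factor YY1.
Ndufs7 (chr10:80249199-80249498, plus strand): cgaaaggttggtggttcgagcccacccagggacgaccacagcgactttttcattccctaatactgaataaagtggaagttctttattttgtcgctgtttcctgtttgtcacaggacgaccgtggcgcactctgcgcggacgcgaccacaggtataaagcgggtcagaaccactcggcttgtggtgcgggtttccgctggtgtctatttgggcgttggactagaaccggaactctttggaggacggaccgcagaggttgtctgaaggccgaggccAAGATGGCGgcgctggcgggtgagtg
The same letters, on either strand, stood in 5 of the 40 windows that matched 38 members (12.5%), against 1.40% of all 32851 windows and 3.30% of the windows of genes in the count table. The other 4 genes with the YY1 letters follow with up to 10 bases on each side, to let the shared core be compared.
Ndufa9 (chr6:126849097-126849125, minus strand): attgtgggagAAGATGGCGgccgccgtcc
Ndufc1 (chr3:51408915-51408943, minus strand): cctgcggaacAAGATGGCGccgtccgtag
Ndufs4 (chr13:114388045-114388069, minus strand): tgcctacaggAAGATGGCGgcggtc
Ndufs6 (chr13:73328433-73328459, minus strand): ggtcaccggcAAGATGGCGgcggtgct
In all 5 genes the letters ran in the direction of the gene, began 23 to 36 bases after its start, and overlapped a start codon annotated by GENCODE for that gene. The log2 fold changes of the 5 genes ranged from -0.32 (Ndufs7) to 0.10 (Ndufs6), so genes with these letters lay on both sides of 0.

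A second set shares GCGCATGCG, a core of the motif of NRF1, a known activator of nuclear genes for respiration. These letters stood in 4 of the 40 member windows (10%), against 1.75% of all windows and 3.94% of the windows of genes in the table. Capitals mark the match, which in Ndufa8 is the reverse complement; in Ndufa11, Ndufaf4 and Ndufaf5 the letters also match on the other strand, shifted by 1 base.
Ndufa11 (chr17:56717692-56717720, plus strand): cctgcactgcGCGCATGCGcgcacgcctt
Ndufa8 (chr2:36049329-36049357, minus strand): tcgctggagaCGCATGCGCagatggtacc
Ndufaf4 (chr4:24897960-24897988, plus strand): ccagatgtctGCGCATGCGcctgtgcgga
Ndufaf5 (chr2:140170652-140170680, plus strand): agtcccgttgGCGCATGCGcctaatagaa
Their log2 fold changes lay between -0.08 (Ndufa11) and 0.05 (Ndufa8). The letters CCGGAAGT of the ETS family stood in 1 member window (2.50%), that of Ndufs3, against 3.89% of all windows and 8.58% of those of genes in the table. TCAAGGTCA of the ERR receptors stood in 0, against 0.423% of all windows and 0.271% of those of genes in the table. At shares this low, 0 of 40 windows says little about the members. Both strands were searched for every motif. A match is a description of the letters and not of binding, and 5 members had no window.

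Levels of the subunit genes lay far above those of the assembly factors. Per kilobase of exon, the median level over the 6 libraries was 33.5 CPM for the 36 subunit-named genes, 1.66 CPM for the 7 assembly factors and 6.83 CPM for all genes. By module, the medians per kilobase were 25.6 CPM for the N module, 27.4 CPM for the Q module, 40.3 CPM for the proximal and 42.4 CPM for the distal membrane arm. All 43 members exceeded 1 CPM in all 6 libraries. The highest levels per kilobase were those of Ndufb8 (152 CPM), Ndufa4 (141 CPM), Ndufb9 (85.1 CPM) and Ndufa13 (82.0 CPM), with Ndufa6 next at 81.0 CPM. Among structural subunits the lowest were Ndufab1, the mitochondrial acyl carrier protein, at 3.49 CPM and Ndufa11, at the joint of the membrane arm, at 5.79 CPM. Ndufaf7, Ndufaf4, Ndufaf6 and Ndufaf5 were the 4 lowest of all members, at 1.25, 1.46, 1.59 and 1.66 CPM per kilobase.

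**Figure D2:**
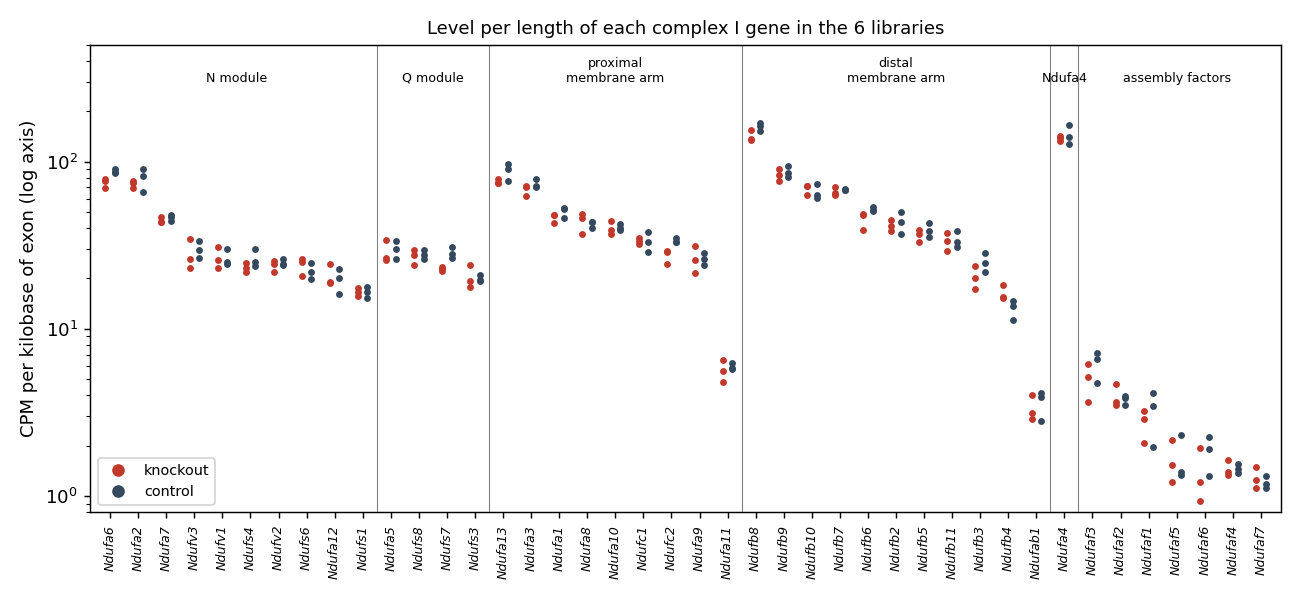
Level of 42 of the 43 genes in each library, as CPM per kilobase of exon on a log axis (y axis), with genes ordered by module and level (x axis), knockout libraries left of control libraries. Subunit genes except Ndufab1 and Ndufa11 lie above 10 CPM per kilobase and all assembly factors below it, while knockout and control points of a gene lie side by side.

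Q module genes take electrons to ubiquinone, and Ndufs7, which holds the last iron-sulfur cluster before it, had the smallest p of all members. Ndufs7 (chr10:80249452-80256792 in mm10) had 17.3, 17.8 and 16.7 CPM in knockout libraries, against 23.3, 21.1 and 20.0 CPM in control libraries. All 3 knockout libraries lay below all 3 control libraries. The log2 fold change was -0.32 (SE 0.12, 95% interval -0.57 to -0.07), with an adjusted p of 0.627 by edgeR's quasi-likelihood test, so it did not pass. Ndufs8, a carrier of iron-sulfur clusters, had 24.6, 30.3 and 28.5 CPM in knockout libraries and 30.5, 28.4 and 26.8 CPM in control libraries. Ndufs3, a core subunit without a cluster, had 22.6, 16.7 and 18.2 CPM in knockout libraries and 19.7, 18.5 and 18.1 CPM in control libraries. Both sets of values overlapped, with log2 fold changes of -0.04 and 0.03. The supernumerary Ndufa5 was at -0.05.

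Ndufs3 needs care, since 39.7% of its runs of 50 bases also stood in other transcripts, 35.8% in pseudogenes. The 5 Q module genes summed to 152.4, 159.3 and 169.0 CPM in knockout libraries, against 184.9, 168.6 and 170.7 CPM in control libraries. The sums overlapped narrowly, in that the highest knockout library stood just above the lowest control library, and their ratio was 0.917. Of the 5 genes, 4 were below 0, with a median log2 fold change of -0.05.

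N module genes bind NADH, and their core subunits lay close to 0. Ndufv1, which holds the flavin and the NADH site, had 37.0, 49.4 and 41.7 CPM in knockout libraries and 48.5, 39.0 and 40.2 CPM in control libraries. Ndufv2, its partner with an iron-sulfur cluster, had 39.7, 35.7 and 41.4 CPM in knockout libraries and 39.7, 43.1 and 39.3 CPM in control libraries. Ndufs1, the largest subunit of this module, had 45.8, 48.7 and 51.6 CPM in knockout libraries and 52.2, 44.8 and 48.4 CPM in control libraries. The groups overlapped for all 3 genes, and their log2 fold changes were 0.0022, -0.064 and 0.0090. For Ndufv1 the 95% interval ran from -0.25 to 0.26.

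Ndufa6, a supernumerary subunit of the LYR protein family, had the smallest p of the N module. It had 42.9, 38.7 and 43.8 CPM in knockout libraries, against 47.6, 50.7 and 48.4 CPM in control libraries. The groups did not overlap, and the log2 fold change was -0.23 (SE 0.10, 95% interval -0.43 to -0.02; adjusted p = 0.723 by edgeR's quasi-likelihood test). Ndufs4, a late-joining subunit whose loss in mice models Leigh syndrome, was at -0.17 (adjusted p = 0.865 by edgeR), and Ndufa2, Ndufv3 and Ndufa7 lay between -0.10 and -0.06. Ndufs6, a zinc-binding subunit, was at 0.10 and Ndufa12 at 0.08. For Ndufa12, 26.2% of the runs of 50 bases also stood in a pseudogene, and for Ndufs6 8.61% stood in its copy Ndufs6b. The 10 genes of the module summed to 378, 363 and 383 CPM in knockout libraries and to 416, 399 and 369 CPM in control libraries, which overlapped, with a ratio of 0.950.

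Over the 7 nuclear core subunits of the N and Q modules, 4 were below 0 and the median log2 fold change was -0.04. Over the 28 supernumerary subunits, 21 were below 0 and the median was -0.07. The difference between these classes was not tested.

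Proximal membrane arm genes held the second smallest p. Ndufc2, a membrane subunit (chr7:97400003-97407800 in mm10), had 19.7, 16.6 and 19.7 CPM in knockout libraries, against 22.3, 22.4 and 23.7 CPM in control libraries. The groups did not overlap, and the log2 fold change was -0.29 (SE 0.12, 95% interval -0.54 to -0.04; adjusted p = 0.697 by edgeR's quasi-likelihood test). Ndufa13, also known as GRIM-19 and as a binding partner of the transcription factor STAT3, had 93.5, 93.5 and 98.5 CPM in knockout libraries and 121, 113 and 95.7 CPM in control libraries. Its groups overlapped because control library 3 lay within the knockout range, and the log2 fold change was -0.21 (SE 0.10; adjusted p = 0.787 by edgeR). Exons of Tssk6 on the other strand cover 30.0% of the exon bases of Ndufa13, and whether strand was used in counting is not given in the sources used here.

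Ndufa1, Ndufa3 and Ndufa11 lay between -0.12 and -0.08, and Ndufa10, Ndufa9, Ndufc1 and Ndufa8 between -0.02 and 0.05. The 9 measured genes of the proximal arm summed to 306, 292 and 315 CPM in knockout libraries and to 340, 329.6 and 312 CPM in control libraries. These sums overlapped, with a ratio of 0.930. Ndufs5, also listed for it, was not analysed here.

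Distal membrane arm genes gave the only module sum whose groups did not overlap, by a small margin. Their 11 measured genes summed to 342, 354 and 363 CPM in knockout libraries, against 372.5, 385 and 370.0 CPM in control libraries, a ratio of 0.938. The mean was 352.7 ± 10.6 CPM in knockout and 375.9 ± 8.07 CPM in control libraries (SD, n = 3 each). Of the 11 genes, 9 were below 0, with a median log2 fold change of -0.07. Ndufb1, also listed for it, was not analysed here.

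**Figure D3:**
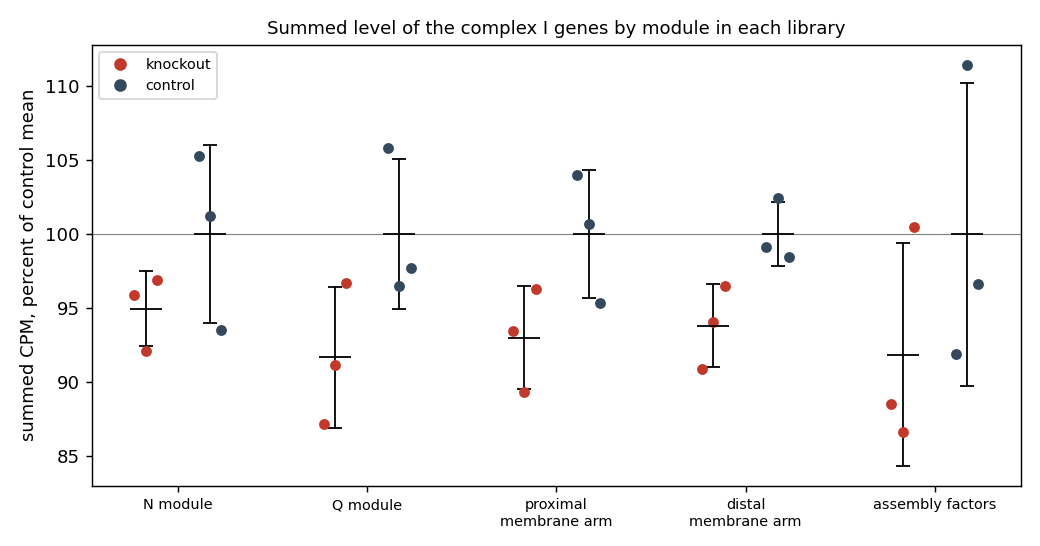
Summed CPM of the genes of each module in each library, as percent of the control mean (y axis), by module (x axis), knockout points left of control points, with bars for mean ± SD (n = 3 each). Knockout means lie below the control means in all 5 groups of genes, by ratios of 0.917 to 0.950, and the points of both groups overlap in every module but the distal membrane arm.

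Within that arm the members had values on both sides of 0. Ndufb8 had the highest level per kilobase of all members. It had 87.5, 86.2 and 98.8 CPM in knockout libraries and 98.0, 104 and 110 CPM in control libraries. Knockout library 3 lay just above the lowest control library, and the log2 fold change was -0.19 (SE 0.09; adjusted p = 0.793 by edgeR's quasi-likelihood test). Exons of Gm20538 on the same strand cover 20.9% of its exon bases. Ndufb3 had 10.7, 9.22 and 12.7 CPM in knockout libraries and 15.1, 11.6 and 13.1 CPM in control libraries. It overlapped as well (-0.28 on the log2 scale, SE 0.16, adjusted p = 0.840 by edgeR). Ndufb6 had 20.9, 26.0 and 25.7 CPM in knockout libraries, against 26.8, 28.4 and 27.2 CPM in control libraries. Its groups did not overlap (-0.18 on the log2 scale, SE 0.12, adjusted p = 0.861 by edgeR), and exons of Smim27 on the other strand cover 34.6% of its exon bases.

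Ndufb4 was the member with the largest positive value. It had 8.32, 7.05 and 6.93 CPM in knockout libraries, against 5.14, 6.69 and 6.17 CPM in control libraries. All knockout libraries lay above all control libraries, by a small margin, and the log2 fold change was 0.31 (SE 0.18, 95% interval -0.08 to 0.70; adjusted p = 0.861 by edgeR's quasi-likelihood test). Of its runs of 50 bases, 37.0% also stood in transcripts of 3 pseudogenes, so its count may be shared. Ndufb9 came next after Ndufa4 by level per kilobase. It had 50.1, 58.7 and 54.2 CPM in knockout libraries and 52.5, 61.5 and 55.4 CPM in control libraries. Its groups overlapped, at -0.06, and 30.9% of its exon bases lie in exons of Gm49356 on the same strand. Ndufb5, Ndufab1, Ndufb2, Ndufb7 and Ndufb11 lay between -0.10 and -0.04, and Ndufb10 at 0.06. Of these, Ndufb2 shares 31.9% of its exon bases with Gm42420 on the same strand, and 17.5% of the 50-base runs of Ndufb11 and 9.53% of those of Ndufab1 also stood in other transcripts.

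**Figure D4:**
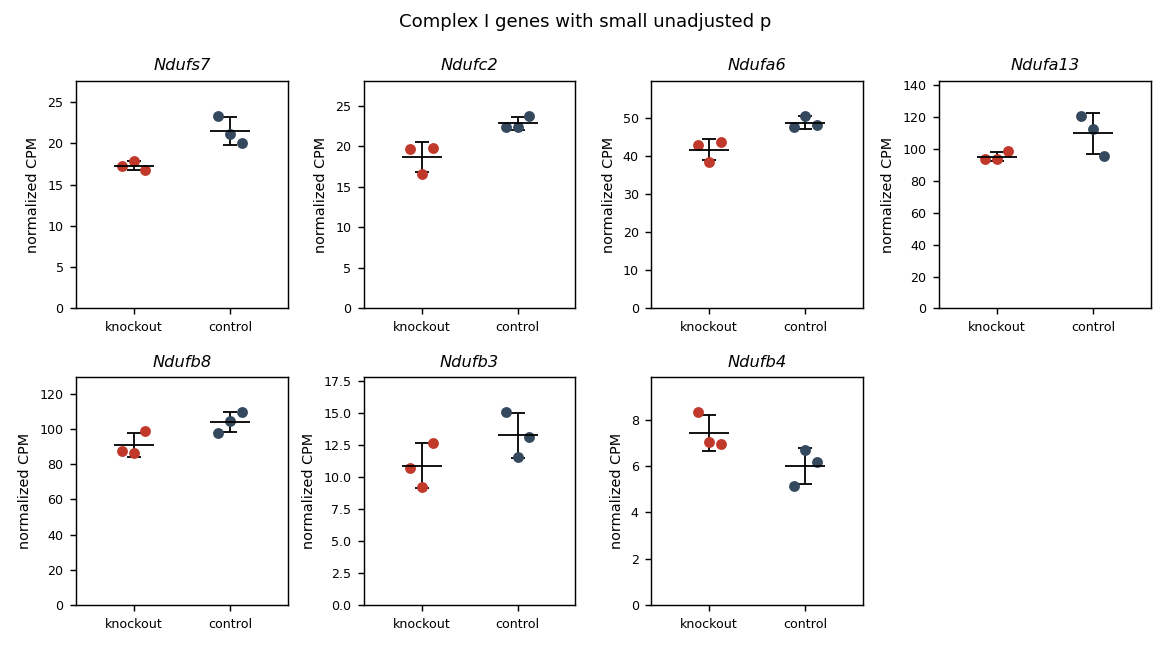
Normalized CPM (y axes, from 0) of 7 of the 8 genes with the smallest unadjusted p in each library, knockout points left of control points, with mean ± SD (n = 3 each). Ndufs7, Ndufc2 and Ndufa6 lie lower in all 3 knockout libraries than in any control library, Ndufb4 lies higher, and the other 3 genes overlap.

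Ndufa4 carries a complex I name but is known as a subunit of complex IV. It had 70.2, 65.0 and 68.4 CPM in knockout libraries and 81.0, 62.7 and 69.0 CPM in control libraries. The knockout values lay inside the control range, and the log2 fold change was -0.06 (SE 0.10).

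Assembly factors were measured with less precision than the subunits. Their log2 fold changes had a median SE of 0.27, against 0.11 for the subunit-named genes, and a median biological coefficient of variation of 16.5%, against 9.37%. Ndufaf3 and Ndufaf4, which work together on the Q module, both overlapped between the groups. Ndufaf3 had 6.53, 3.87 and 5.46 CPM in knockout libraries and 7.64, 7.07 and 5.04 CPM in control libraries. Ndufaf4 had 5.09, 4.88 and 5.95 CPM in knockout libraries and 5.0, 5.27 and 5.65 CPM in control libraries. The log2 fold change was -0.32 (SE 0.22) for Ndufaf3 and 0.0058 (SE 0.20) for Ndufaf4, and neither had an unadjusted p under 0.05. Ndufaf6, a factor of early assembly, had 1.31, 1.01 and 2.08 CPM in knockout libraries and 1.43, 2.06 and 2.43 CPM in control libraries. Its value of -0.40 was the lowest of all members, but the groups overlapped and the 95% interval ran from -1.15 to 0.35.

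Ndufaf1, a factor for the membrane arm, had 3.03, 4.65 and 4.17 CPM in knockout libraries and 2.86, 5.98 and 5.04 CPM in control libraries. Ndufaf2, a relative of Ndufa12 that binds late, had 2.48, 3.18 and 2.39 CPM in knockout libraries and 2.71, 2.38 and 2.61 CPM in control libraries. The groups of both overlapped, at -0.23 and 0.06. Ndufaf5, known in human cells to hydroxylate an arginine of NDUFS7, had 3.30, 4.18 and 5.95 CPM in knockout libraries and 3.78, 6.36 and 3.65 CPM in control libraries. Ndufaf7, a methyltransferase of early assembly, had 3.44, 2.87 and 2.57 CPM in knockout libraries and 2.71, 2.57 and 3.04 CPM in control libraries. Their groups overlapped too, at -0.05 and 0.10. In all, 4 of the 7 factors were below 0, with a median of -0.05. This median was -0.28 without knockout library 3, -0.17 without control library 1 or 3, and 0.01 without control library 2, so its sign and size turned on single libraries.

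Other assembly factors, which lack an Ndufaf name, lay on both sides of 0: 13 of 15 listed genes were measured, 0 were called, 6 were below 0 and the median log2 fold change was 0.07. Oxa1l, the insertase of the inner membrane, had 9.70, 8.76 and 10.5 CPM in knockout libraries, against 11.4, 14.1 and 11.5 CPM in control libraries. Its groups did not overlap (-0.35 on the log2 scale, SE 0.15, adjusted p = 0.737 by edgeR's quasi-likelihood test). Tmem70 was at 0.26 and Foxred1 at -0.25, also without overlap (adjusted p = 0.793 and 0.834 by edgeR). The gene known as Ndufaf8 stands in the table as 1810043H04Rik, outside the name rule, at -0.10 (SE 0.25). Of the 7 subunits encoded in mitochondrial DNA, 0 were analysed here.

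Genes of the other respiratory complexes lay mostly below 0 as well. Of 41 genes of complexes II to V, 31 (75.6%) were below 0, their median was -0.075 and 0 were called. The smallest adjusted p among them was that of Uqcr10, a small subunit of complex III, with 43.0 ± 2.39 CPM in knockout and 53.3 ± 3.50 CPM in control libraries (SD, n = 3 each; log2 fold change -0.31, SE 0.10; adjusted p = 0.495 by edgeR's quasi-likelihood test). These lists share their 6 libraries with the complex I genes.

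Gene length moved with the fold change. Complex I genes are short, with a median exon length of 800 bases, against 2958 bases for all genes. When all genes were ordered by length and cut into 10 groups of like size, 28 of the 43 members fell in the group of the shortest genes (45 to 1136 bases). In that group all 1056 genes had a median of -0.043 on the log2 scale and 59.7% of them lay below 0, while the 28 members in it had a median of -0.067. In the 3 groups of the longest genes the medians of all genes were 0.016, 0.023 and 0.017. With the length trend removed from each library, 26 of the 43 members were below 0, the median of the members was -0.025, against -0.0021 for all genes, and 1 member was under an unadjusted p of 0.05. The part of length in single members was not tested further.

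**Figure D5:**
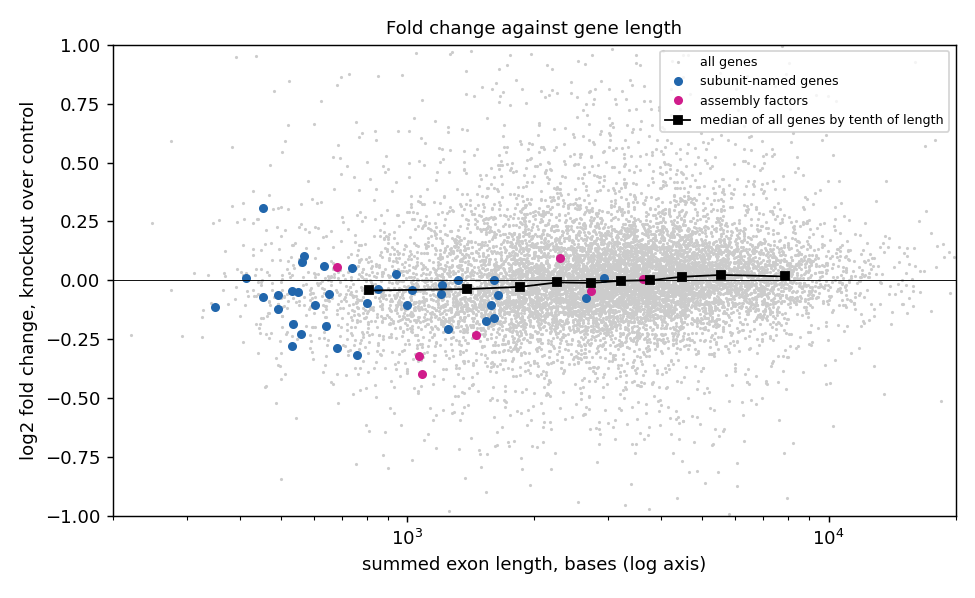
Log2 fold change, Dhps knockout over control (y axis), against summed exon length in bases on a log axis (x axis), for all genes (grey), subunit-named genes (blue) and assembly factors (pink). Black squares are medians of all genes in 10 groups by length, -0.043 for the shortest and 0.017 for the longest, and 28 of the 43 complex I genes lie in the group of the shortest.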

How the data were processed

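The deposited table holds raw read counts per gene, whole numbers that the authors did not normalize, with gene coordinates and a summed exon length (another kind of deposited value, in bases). Per the submitters' processing notes, the build was mm10 and the tools edgeR, STAR 2.4.2a, featureCounts and Subread 1.5.0, with no role or order named; annotation and strand are not given in the sources used here. Every gene exceeded 1 CPM in at least 3 libraries, and 0 columns of samples were left unused.

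Counts were scaled by TMM and fitted over all 10551 genes with edgeR 4.0.16 (R 4.3.3), with genotype as the only term; filterByExpr (minimum count 10) removed 0 genes. The biological coefficient of variation was 10.7%. Two-sided quasi-likelihood p-values were adjusted by Benjamini-Hochberg over all genes and called under 0.05. The test was tested on simulated data. SE is the size of the log2 fold change over the square root of F. Level per length is CPM per kilobase of deposited exon length. Alternatives were other scaling and filters, DESeq2 1.42.0, limma-voom (limma 3.58.1), a replicate block, each library left out, an adjusted p under 0.1, removal of a trend with length (loess span 0.3) and Lyz2 left out.

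Members and lists were chosen with earlier results of these data known. Values per library are given for Dhps, the 8 members with the smallest p, the 4 highest and 4 lowest per length, the 7 nuclear core subunits and the assembly factors, except 1 member that is in the counts and sums but is not reported here by itself, and up to 3 genes are named from each other list; Ndufb6 and 1810043H04Rik were chosen after their values were seen. Shared runs of 50 bases and exon overlaps come from GENCODE M21 (GRCm38), promoters from RefSeq (GRCm38.p6).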

Additional observations from a re-analysis of the deposited data

How the results depend on the processing

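Complex I genes called changed numbered 0 under every alternative run, an adjusted p under 0.1 included, and 26 to 32 of the 43 lay below 0. With the replicate number as a block 35 genes of the whole table were called, none of them a complex I gene (lowest adjusted p 0.412, Ndufs7, edgeR), against 11 without it. Dhps itself was called under the block (-0.61 on the log2 scale, adjusted p = 0.033 by edgeR); under the other alternatives its adjusted p was 0.076 to 0.66. Same-numbered libraries deviated together with r of 0.139, 0.0195 and 0.148, against -0.181 to 0.0548 for libraries with unlike numbers. The labels do not say that the numbers pair libraries, so the main fit has no block. Whether they do was not settled by these values. DESeq2 called 22 genes, 7 were called without Lyz2 in the counts, and 4 to 19 with 1 library left out; the causes were not tested. The median log2 fold change of the members was -0.09 to -0.04 with 1 library left out, and that of the assembly factors -0.28 to 0.0073. Of 22 members followed singly and Dhps, 12 kept their sign throughout. Ndufs8 turned to 0.0036 with the length trend removed, Ndufaf4 to -0.0029 under the block and Ndufv1 to -0.0035 with limma-voom; the cause was not tested. With 1 library left out, values crossed 0 for Ndufaf1 (-0.49 to 0.016), Ndufa4 (-0.14 to 0.044), Ndufb9 (-0.12 to 0.0137), Ndufaf7 (-0.0227 to 0.19), Ndufs8 (-0.11 to 0.0452), Ndufs3 (-0.10 to 0.12), Ndufaf2 (-0.0752 to 0.14), Ndufaf5 (-0.31 to 0.28), Ndufs1 (-0.0415 to 0.0668), Ndufaf4 (-0.0838 to 0.0605) and Ndufv1 (-0.11 to 0.11). Of the 7 assembly factors, with low levels and more spread between libraries, 1 had an interval within 1.5-fold; depth and spread were not tested apart.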

Other observations

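Genes for known regulators of respiratory genes did not pass the test either. Of 15 listed, 12 were measured (no row for Esrrb, Esrrg and Ppargc1a), 0 were called, 6 lay below 0 and the median log2 fold change was 0.01. Yy1, whose motif letters stood in 5 complex I promoters, had 60.9, 63.7 and 56.6 CPM in knockout libraries, against 52.0, 50.9 and 55.9 CPM in control libraries. Its groups did not overlap, but by a narrow margin, and its log2 fold change was 0.19 (SE 0.10; adjusted p = 0.807 by edgeR's quasi-likelihood test). Esrra, a nuclear receptor that activates respiratory genes, was at -0.14, and Gabpa, an ETS factor of the same kind, at 0.12 (adjusted p = 0.894 and 0.906 by edgeR), both with overlap. Nrf1, chosen after its values were seen because its motif was searched, was at -0.07 (SE 0.11).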
